A study of Mus musculus with 6 samples.

Results

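The genes described here are those of the machine that makes and uses microRNAs: the Argonaute genes Ago1, Ago2, Ago3 and Ago4, the TNRC6 genes Tnrc6a, Tnrc6b and Tnrc6c, and the processing genes Dicer1, Drosha and Dgcr8. They were chosen by name, as every row of the deposited table whose RefSeq transcript belongs to 1 of these 10 mouse genes. All 10 genes were found, in 12 of the table's 32025 rows, among 20263 genes that could be named. The 7 Argonaute and TNRC6 genes are called effector genes and the other 3 processing genes.

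The cells were mouse neural stem cells of the CD-1 albino strain, taken at embryonic stage E14.5 and kept dividing as neurospheres, which are floating colonies of stem and progenitor cells. One group received a miR-128 mimic by nucleofection, an electrical transfection, and the other received miR-Control in the same way. The labels give no sequence for either RNA, and no cells without nucleofection were analysed here. Each group had 3 biological replicates, whose RNA was taken after 72 h and hybridised to 6 exon arrays, to find genes that respond to miR-128, a microRNA that these cells do not normally express according to the submitters. The values are log2 levels made by RMA, so a difference of 1 is a doubling of signal, and the level of one row is not set against that of another. In bulk RNA, fewer cells of a type and less RNA per cell cannot be told apart.

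A microRNA begins as a hairpin in a longer transcript. In the nucleus the Microprocessor, made of the RNase Drosha and its RNA-binding partner DGCR8, cuts the hairpin free, and in the cytoplasm Dicer trims it to a short duplex. An Argonaute protein keeps one strand as a guide, and a TNRC6 protein, also called GW182, binds Argonaute and recruits the deadenylases that shorten the tail of the target mRNA. A mimic is supplied as a ready duplex and so needs an Argonaute but neither Drosha nor Dicer. Neural progenitors depend on this pathway, and loss of Dicer1 in the developing mouse forebrain is known to cause cell death and disordered neurogenesis.

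The mature miR-128-3p of RefSeq is shown first as background, because all comparisons below contrast cells given a miR-128 mimic with cells given miR-Control. The labels do not say which arm or sequence the mimic had, and its entry into Argonaute was not measured. RefSeq, on build GRCm38.p6, lists the same mature miR-128-3p at Mir128-1, chr1:128202404-128202424 on the plus strand, and at Mir128-2, chr9:112118644-112118664 on the minus strand. The 7 bases in capitals are its seed, bases 2 to 8, which pair with targets. Of 1679 mature mouse microRNA names searched, no other name had these bases at 2 to 8. Both miR-27 forms had them 1 base further in, at 3 to 9, and are shown beside it with those bases in capitals.
miR-128-3p: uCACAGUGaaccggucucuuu
miR-27a-3p: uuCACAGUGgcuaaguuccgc
miR-27b-3p: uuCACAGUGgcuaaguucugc
Mir27a lies at chr8:84208727-84208747 and Mir27b at chr13:63300760-63300780, both on the plus strand.

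Across the whole table no row passed limma's moderated test at a Benjamini-Hochberg adjusted p of 0.05, which is 0% of 32025 rows, and 2291 rows, or 7.15%, had an unadjusted p under 0.05, 4.04% on the higher side and 3.11% on the lower. The lowest adjusted p of any row was 0.192, and a log2 fold change typically carried a standard error of 0.13 (the median over rows). The miR-Control replicate 3 array stood apart, at 42.5 on the first principal component against -18.7 to -0.226 for the other 5 arrays. Of 10 neural stem cell markers 5 had a higher and 5 a lower mean with miR-128, with log2 fold changes from -0.30 (Nes and Fabp7) to 0.33 (Hes5), and none passed. Groups did not overlap for Fabp7 alone, or 10% of these markers, against 12.1% of all named genes. Vim, Sox2 and Slc1a3 averaged 13.6, 12.0 and 12.2 with miR-128, against 13.6, 11.9 and 12.2 in miR-Control. The 6 microglial markers averaged from 4.78 to 7.31 over all arrays, among them Ptprc at 4.80 with miR-128 and 4.77 in miR-Control. Signal over background is unknown for every row.

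None of the 12 rows passed the test, so nothing below is called a rise or a fall. All 7 effector genes had a higher mean with miR-128, with log2 fold changes from 0.05 to 0.49 and a median of 0.21. Over all named genes 56.2% had a higher mean with miR-128, and the median was 0.02. The processing genes had log2 fold changes of -0.19, -0.02 and 0.06, with a median of -0.02. An unadjusted p under 0.05 was found for 2 of the 10 genes, Tnrc6b and Ago4, against 7.13% of all named genes. Groups did not overlap for 3 of the 10 genes, Tnrc6b and Ago4 on the higher side and Dicer1 on the lower side. Among all named genes 12.1% had groups that did not overlap, 6.87% on the higher side and 5.27% on the lower, and over rows the share was 11.9%.

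**Figure D1:**
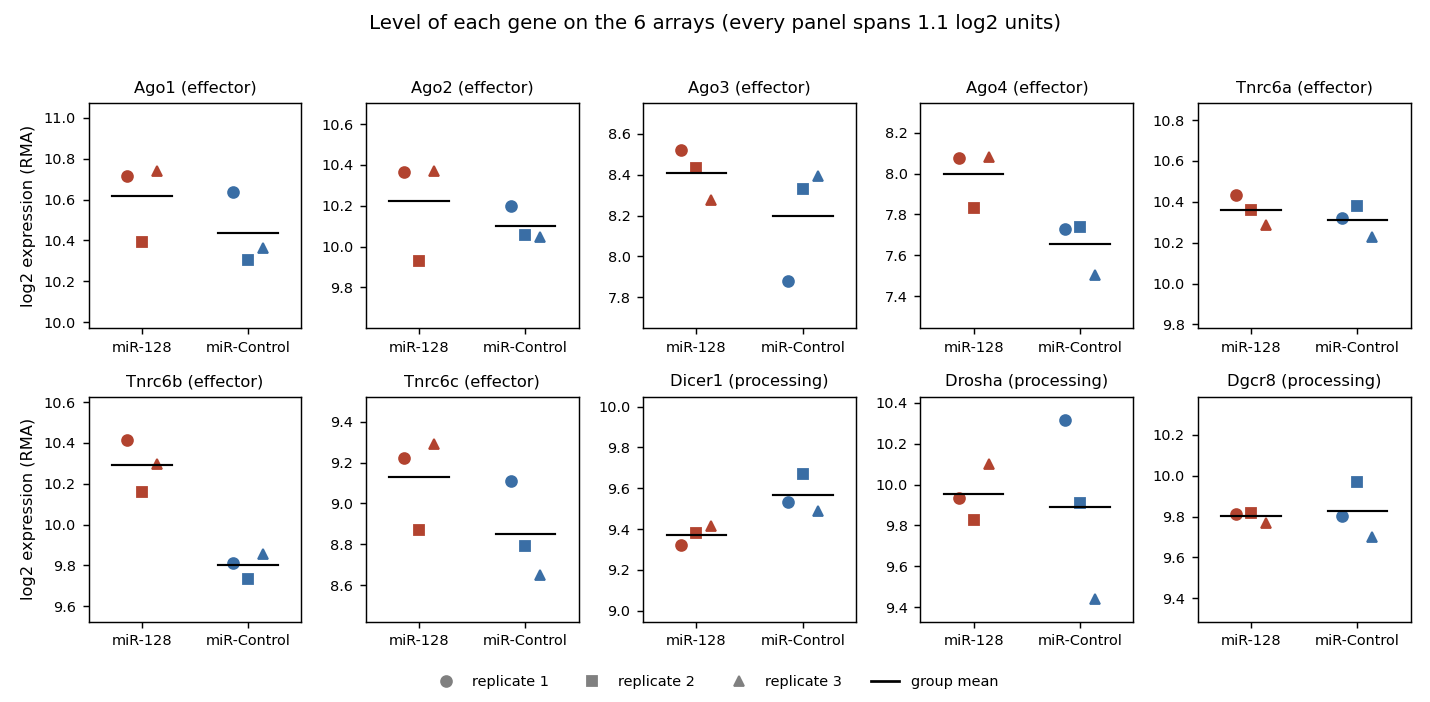
Log2 level of each gene on each array, with miR-128 in red on the left and miR-Control in blue on the right of every panel, marker shape for the replicate and a bar for the group mean. Tnrc6b and Ago4 have all miR-128 arrays above all miR-Control arrays, Dicer1 has them all below, and the groups of the other 7 genes overlap. Each gene is shown by its row of highest mean, and levels are not comparable between panels.

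Tnrc6b encodes a GW182 scaffold that links Argonaute to the CCR4-NOT deadenylase, and it had the largest difference of the 10 genes. Its row NM_177124 read 10.42, 10.16 and 10.30 in miR-128 replicates 1 to 3, against 9.81, 9.73 and 9.86 in miR-Control replicates 1 to 3. The lowest miR-128 array was thus above the highest miR-Control array. The means were 10.29 ± 0.13 with miR-128 and 9.80 ± 0.06 in miR-Control (SD, n = 3 each). The log2 fold change was 0.49 (SE 0.11, 95% interval 0.24 to 0.74), a 1.40-fold higher level, with an adjusted p of 0.380 in limma and position 130 of 32025 rows by p.

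The second Tnrc6b row, NM_144812, read 10.27, 10.03 and 10.17 with miR-128, against 9.68, 9.65 and 9.78 in miR-Control. Its log2 fold change was 0.45 (SE 0.11, 95% interval 0.21 to 0.69, limma adjusted p = 0.393). On every array the 2 rows lay within 0.08 to 0.15 of each other. They belong to 1 gene and can share probes, so they are 1 observation and not a repeat. A microRNA hairpin, Mir5113, lies inside the Tnrc6b span, and its mature product, with bases 2 to 8 in capitals, is at chr15:80940049-80940071 on the plus strand in GRCm38.p6.
miR-5113: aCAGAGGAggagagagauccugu
The only 2 transcripts that RefSeq now lists for Tnrc6b are these rows, and both are curated. For Tnrc6a it lists 16, of which only 1 is curated, and that 1 is the row measured.

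The paralogs of Tnrc6b differed less between groups. Tnrc6a, which encodes the GW182 protein first found in cytoplasmic foci, read 10.44, 10.36 and 10.29 with miR-128, against 10.32, 10.38 and 10.23 in miR-Control. These groups overlapped, and the log2 fold change was 0.05 (SE 0.10, 95% interval -0.18 to 0.28, limma adjusted p = 0.984). Tnrc6c, the third scaffold, read 9.22, 8.87 and 9.29 with miR-128, against 9.11, 8.79 and 8.65 in miR-Control, a log2 fold change of 0.28 (SE 0.16, 95% interval -0.08 to 0.64, limma adjusted p = 0.794). miR-128 replicate 2 lay low among its group for Tnrc6c and miR-Control replicate 1 lay high, which is where the groups overlapped.

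The difference between paralogs was compared within each array, over 9 pairs of genes of the same family. The log2 fold change of Tnrc6a was 0.44 below that of Tnrc6b (-0.44), with no overlap between the groups. Tnrc6b and Tnrc6c differed by 0.21 in log2 fold change, with overlapping groups. Groups did not overlap for 2 of the 9 pairs. The pairs share genes, and the share without overlap was not computed for other pairs of genes. With 3 arrays per group, an exact permutation of the arrays cannot give a p below 0.1. Both of these pairs had that p, or 0.45 after Benjamini-Hochberg adjustment over the 9 pairs. The pairs were also chosen with their values known, so these differences are descriptions only.

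The Argonaute genes encode the proteins that hold the guide strand. In mammals Ago2 alone of the 4 is well known as a strong slicer, and the others act mainly through TNRC6. In the RefSeq annotation Ago3, Ago1 and Ago4 stand next to each other on chromosome 4 with 0 other coding genes between them, while Ago2 lies on another chromosome. The 3 neighbours did not share 1 pattern over the arrays.

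Ago4 had the largest difference of the Argonaute genes. It read 8.08, 7.83 and 8.08 in miR-128 replicates 1 to 3, against 7.73, 7.74 and 7.50 in miR-Control replicates 1 to 3, so the groups did not overlap. The log2 fold change was 0.34 (SE 0.12, 95% interval 0.07 to 0.61), a 1.27-fold higher level, with an adjusted p of 0.607 in limma. miR-128 replicate 2 lay closest to the controls, and after centring each array on its median the groups overlapped.

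Ago1 read 10.72, 10.39 and 10.74 with miR-128, against 10.63, 10.30 and 10.36 in miR-Control, a log2 fold change of 0.18 (SE 0.14, 95% interval -0.13 to 0.50, limma adjusted p = 0.897). Ago2 read 10.37, 9.93 and 10.37 with miR-128, against 10.20, 10.06 and 10.05 in miR-Control, a log2 fold change of 0.12 (SE 0.14, 95% interval -0.20 to 0.44, limma adjusted p = 0.950). In both genes miR-128 replicates 1 and 3 were the highest of the 6 arrays, and miR-128 replicate 2 lay among or below the controls.

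Ago3 had another pattern. It read 8.52, 8.43 and 8.28 with miR-128, against 7.88, 8.33 and 8.39 in miR-Control, a log2 fold change of 0.21 (SE 0.15, 95% interval -0.13 to 0.55, limma adjusted p = 0.886). miR-Control replicate 1 was the lowest of the 6 arrays, and without it the log2 fold change was 0.05. Of the 6 Argonaute pairs 1, Ago2 and Ago4, did not overlap in the within-array comparison, with the log2 fold change of Ago2 below that of Ago4 (-0.22).

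**Figure D2:**
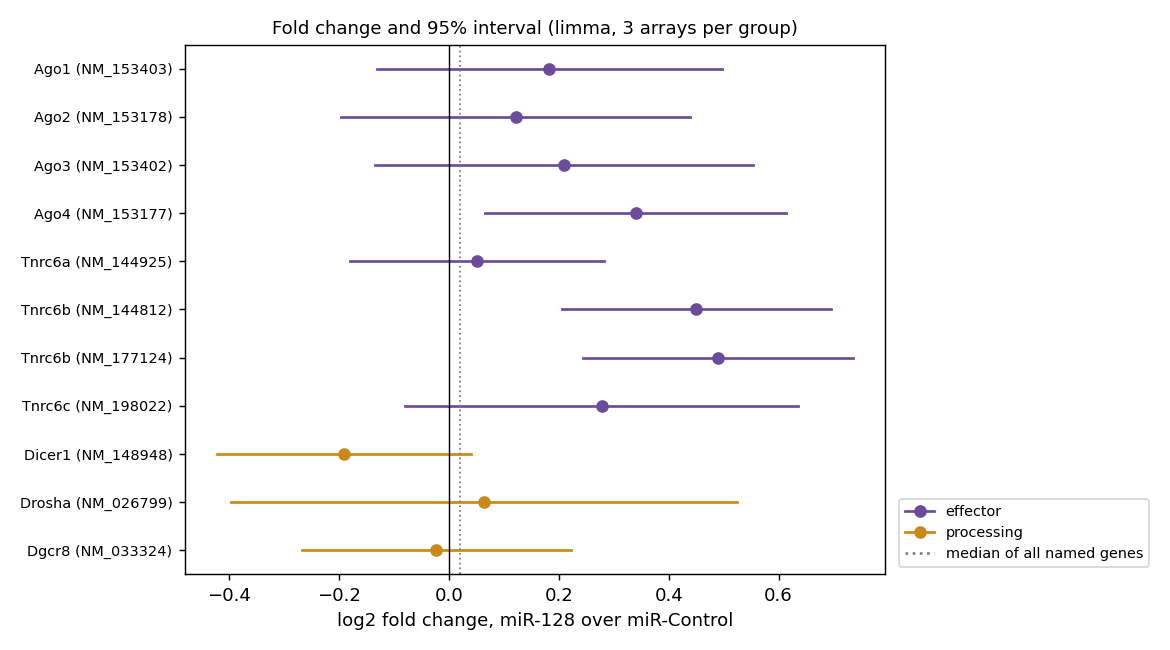
Log2 fold change of miR-128 over miR-Control (points) with the 95% interval from limma (lines) for every distinct row, effector genes in purple above processing genes in orange, and the median of all named genes as a dotted line. The intervals of both Tnrc6b rows and of Ago4 lie above 0 before any correction for the number of rows, and those of the other 8 rows include 0. The 2 Drosha rows hold the same values and are drawn once.

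Some pairs of the 10 genes had high correlations within groups, across both classes. With each group's mean removed, the deviations over the 6 arrays had a Pearson r of 0.94 between Ago1 and Tnrc6c, 0.91 between Ago1 and Ago2 and 0.87 between Ago2 and Tnrc6c. It was 0.85 between Tnrc6c and Drosha and 0.80 between Dicer1 and Dgcr8. Ago3 ran the other way, with r of -0.65 against Ago1, -0.73 against Tnrc6c and -0.87 against Drosha. The pairs named were picked from all pairs of the 10 genes, over which r ran from 0.94 to -0.87. No such values were computed for other genes. The r values are descriptions over 6 arrays that were normalised together. Of the 7 effector genes 5 had their lowest miR-128 value in replicate 2, against 31.7% of all named genes.

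Among all named genes, the values over the 6 arrays that most resembled those of Tnrc6b were of Sema5a, a semaphorin of axon guidance (Pearson r = 1.00), and S1pr1, a receptor for sphingosine 1-phosphate (r = 0.99). They were picked from 20262 genes over only 6 arrays, so these values are a description only. Among the genes of the microRNA machinery, Ago4 had the highest r with Tnrc6b, at 0.85, and Dicer1 the lowest, at -0.91, but these values include the difference between the groups. With group means removed the r with Tnrc6b was 0.35 for Ago4 and -0.62 for Dicer1, and it was highest for Ago2, at 0.77.

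Dicer1, the RNase that cuts precursors to mature length, was the only processing gene whose groups did not overlap. It read 9.32, 9.38 and 9.42 in miR-128 replicates 1 to 3, against 9.53, 9.67 and 9.49 in miR-Control replicates 1 to 3. The means were 9.37 ± 0.05 with miR-128 and 9.56 ± 0.09 in miR-Control (SD, n = 3 each). The log2 fold change was -0.19 (SE 0.10, 95% interval -0.42 to 0.04), equal to 0.876 of the miR-Control level, with an adjusted p of 0.775 in limma. The 95% interval includes 0, although the arrays of the groups lie apart.

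Drosha, the nuclear RNase, read 9.93, 9.83 and 10.10 with miR-128, against 10.32, 9.91 and 9.44 in miR-Control. The miR-Control arrays spread widely, with an SD of 0.44 against 0.14 with miR-128, and held both the highest and the lowest of the 6 values. The log2 fold change was 0.06 (SE 0.20, 95% interval -0.40 to 0.52, limma adjusted p = 0.988), and its sign turned when some arrays were left out. It was -0.16 without miR-Control replicate 3, the array that stood apart, and -0.010 when miR-128 replicate 3 was left out. Its 2 rows, NM_001130149 and NM_026799, were identical on every array and count once.

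Dgcr8, the RNA-binding partner of Drosha in the Microprocessor, read 9.81, 9.82 and 9.77 with miR-128, against 9.80, 9.97 and 9.70 in miR-Control. The miR-128 arrays lay within the control range, and the log2 fold change was -0.02 (SE 0.11, 95% interval -0.27 to 0.22, limma adjusted p = 0.993). Dgcr8 mRNA is itself a known substrate of the Microprocessor, which cuts hairpins in it and thereby lowers its level. RefSeq places 2 hairpins inside Dgcr8, and Mir1306, 1 of these 2, is printed here as an example of the hairpin form that the Microprocessor recognises. It lies at chr16:18284239-18284317 on the minus strand of GRCm38.p6, and its 2 mature arms are in capitals.
Mir1306 hairpin: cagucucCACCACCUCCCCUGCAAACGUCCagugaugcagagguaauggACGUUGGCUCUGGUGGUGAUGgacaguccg
Mir1306 has no value of its own here, and the Dgcr8 row does not separate cut from uncut mRNA.

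Effector and processing genes were then set against each other on the same array, which removes any shift common to the whole array. The mean level of the 7 effector genes, relative to the mean of the controls, was 0.34, 0.09 and 0.28 in miR-128 replicates 1 to 3, against 0.05, -0.0031 and -0.04 in miR-Control replicates 1 to 3. That of the 3 processing genes was -0.07, -0.08 and 0.0019 with miR-128, against 0.13, 0.09 and -0.22 in miR-Control. With the values as deposited, the effector means did not overlap between groups and the processing means did. The effector separation depends on the scaling of the arrays. The median of all rows was 7.49 on the miR-128 replicate 2 array, against 7.41 and 7.40 in miR-Control replicates 1 and 2. Relative to these medians, the effector mean of miR-128 replicate 2 lies among the controls. Effector minus processing averaged 0.29 ± 0.12 with miR-128 and 0 ± 0.15 in miR-Control (SD, n = 3 each). The lowest miR-128 array, replicate 2, and the highest control, replicate 3, both had 0.17, so the groups met at that value. No p is given, because the genes were chosen with results of these arrays known.

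**Figure D3:**
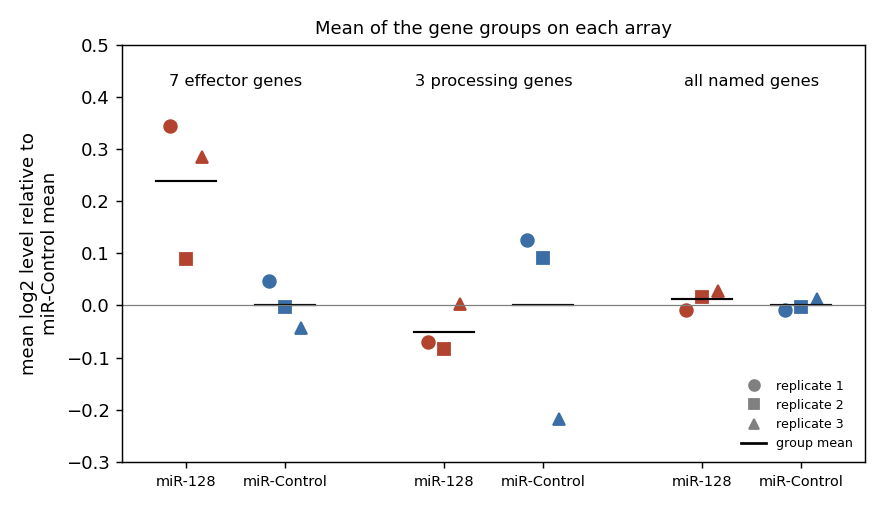
Mean log2 level of the 7 effector genes, the 3 processing genes and all named genes on each array, relative to the mean of the miR-Control arrays, with miR-128 in red left of miR-Control in blue, marker shape for the replicate and bars for group means. The effector means are 0.34, 0.09 and 0.28 with miR-128 and within 0.05 of 0 in the controls, while miR-Control replicate 3 is at -0.22 for the processing genes and all named genes stay within 0.03 of 0. Levels are as deposited, without centring on the array medians.

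Other steps of the pathway gave differences in both directions. Of the 12 measured partners of Drosha and Dicer and factors of export and editing, 5 had a higher and 7 a lower mean with miR-128, 0 passed, and the median log2 fold change was -0.06. The helicase Ddx17, a Microprocessor cofactor, read 11.64, 11.90 and 11.90 with miR-128, against 12.04, 11.90 and 12.21 in miR-Control (log2 fold change -0.24, limma adjusted p = 0.768). Ran, the GTPase that drives nuclear export of precursors with exportin 5, read 10.16, 10.33 and 10.51 with miR-128, against 10.52, 10.71 and 10.46 in miR-Control (log2 fold change -0.23, limma adjusted p = 0.781). The groups of Ddx17 and of Ran overlapped. Groups did not overlap for 2 other genes of the 12, or 16.7%, both on the lower side, against 12.1% of all named genes.

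The LIN28 genes, Trim71 and the enzymes that act on tails of precursors numbered 8. Of these, 7 had a higher mean with miR-128, against 56.2% of all named genes, and 0 passed, with a median of 0.07. Tut4, a uridylyl transferase that tails let-7 precursors, read 10.08, 9.99 and 9.68 with miR-128, against 9.65, 9.72 and 9.70 in miR-Control (log2 fold change 0.23, limma adjusted p = 0.786). Trim71, a let-7 target that binds Argonaute, read 7.56, 7.45 and 7.56 with miR-128, against 7.37, 7.27 and 7.43 in miR-Control, without overlap (log2 fold change 0.17, limma adjusted p = 0.821). It was the 1 gene of the 8 without overlap, or 12.5%, against 12.1% of all named genes.

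The enzymes that act on the target mRNA after TNRC6 has bound were split. Of 26 genes of deadenylation, decapping and translational repression, 15 had a higher and 11 a lower mean with miR-128, 0 passed, and the median was 0.02. Groups did not overlap for 4 of the 26, or 15.4%, against 12.1% of all named genes. Cnot6l, a catalytic deadenylase of CCR4-NOT, read 10.92, 10.66 and 10.67 with miR-128, against 10.52, 10.41 and 10.44 in miR-Control (log2 fold change 0.29, SE 0.11, limma adjusted p = 0.641). Cnot9, the subunit of that complex that docks TNRC6 tryptophans, read 11.07, 11.22 and 11.12 with miR-128, against 11.35, 11.49 and 11.29 in miR-Control (log2 fold change -0.24, SE 0.11, limma adjusted p = 0.692). These 2 subunits of 1 complex thus lay on opposite sides.

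Among 18 genes whose products load or bind Argonaute, 13 had a lower mean with miR-128, against 8876 of all 20263 named genes. Of the 18, 0 passed, and the median was -0.14. Groups did not overlap for 1 of the 18, or 5.56%, against 12.1% of all named genes. Fxr1, an RNA-binding protein of the fragile X family that associates with Argonaute, was that gene and had the smallest p of the 18. It read 11.56, 11.72 and 11.45 with miR-128, against 11.90, 11.96 and 12.09 in miR-Control, with no overlap and a log2 fold change of -0.41 (SE 0.11, limma adjusted p = 0.461). Ptges3, the HSP90 cochaperone p23 that takes part in Argonaute loading, read 10.08, 10.19 and 10.01 with miR-128, against 10.17, 10.29 and 10.53 in miR-Control, with overlap (log2 fold change -0.24, limma adjusted p = 0.761). No difference between these lists was tested.

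**Figure D4:**
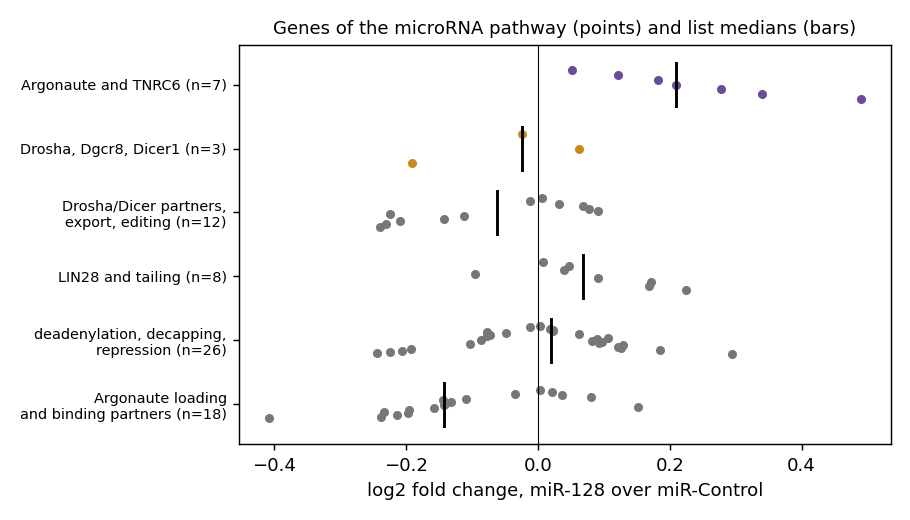
Log2 fold change of miR-128 over miR-Control for each gene (points) in 6 steps of the microRNA pathway, with the median of each list as a black bar. The effector genes all lie right of 0 with a median of 0.21, the loading and binding partners have a median of -0.14, and no point passed the test over all rows.

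The PIWI genes, relatives of the Argonautes that work in the germline, gave levels of 3.62 to 6.61 in the 8 genes with a row, among them Piwil1 at 6.38 with miR-128 and 6.40 in miR-Control. Their log2 fold changes ran from -0.13 to 0.06. Groups did not overlap for 1 gene, Mael, or 12.5% of the 8, against 12.1% of all named genes.

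The table also holds rows of 223 microRNA genes, whose precursors are what Drosha and Dicer act on. They were looked at after the rows had been seen. Of these rows 125 had a higher and 98 a lower mean with miR-128, 0 passed, and 27, or 12.1%, had groups that did not overlap, the same share as all named genes. Such rows rest on few probes and cannot tell a primary transcript from a hairpin. In 34.5% of them miR-Control replicate 3 was the highest array, against 27.0% of all named genes.

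The rows of the loci that encode miR-128 and miR-27, whose mature forms are printed above, did not pass either. Mir128-1 read 8.02, 8.47 and 7.70 with miR-128, against 7.40, 7.83 and 8.07 in miR-Control (log2 fold change 0.30, limma adjusted p = 0.894). Mir128-2 read 8.15, 8.11 and 7.76 with miR-128, against 7.84, 7.50 and 9.25 in miR-Control, where replicate 3 was the highest of the 6 arrays (log2 fold change -0.20, limma adjusted p = 0.983). Mir27a read 7.52, 7.38 and 7.47 with miR-128, against 7.59, 7.62 and 7.68 in miR-Control, without overlap (log2 fold change -0.17, limma adjusted p = 0.813), and Mir27b had overlapping groups (log2 fold change 0.18, limma adjusted p = 0.955). The array reads the genes and not the mimic, so these rows do not measure delivery of miR-128.

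Of the longer microRNA host transcripts 5 of 8 listed had a row. Mir100hg averaged 9.17 with miR-128 and 8.73 in miR-Control, and Mir22hg averaged 6.31 with miR-128 and 6.55 in miR-Control. Mir17hg, host of a microRNA cluster active in dividing cells, averaged 8.72 with miR-128 and 9.13 in miR-Control. None of the 5 had groups that stood clear of each other, against 12.1% of all named genes.

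Markers of some other cell types had higher means with miR-128, though none passed the test. Of 8 markers of the oligodendrocyte lineage 7 had a higher mean with miR-128, against 56.2% of all named genes, and 3, or 37.5%, had groups that did not overlap, against 12.1%. The mean of the list relative to the controls was 0.21, 0.14 and 0.28 with miR-128, against 0.04, -0.08 and 0.04 in miR-Control. All 6 astrocyte and all 6 microglial markers had higher means too, with medians of 0.11 and 0.05. The part of these cell types in the effector values was not tested. The 8 neuronal markers had 4 means higher and 4 lower, and the 6 vascular markers 3 higher and 3 lower, with a median of -0.01. Dcx, a gene of young neurons, averaged 7.22 with miR-128 and 6.98 in miR-Control without overlap (log2 fold change 0.24, limma adjusted p = 0.726), and Rbfox3, a gene of mature neurons, averaged 7.60 with miR-128 and 7.66 in miR-Control. Dcx had the smallest p of the 8 neuronal markers. It was the only 1 of them without overlap, or 12.5%, against 12.1% of all named genes.

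Leaving out single arrays moved the values of the effector genes without turning any sign. The log2 fold change of Tnrc6b (NM_177124) ran from 0.43 to 0.56 over the 6 settings that leave out 1 array. That of Ago4 ran from 0.26 to 0.42, and that of Dicer1 from -0.23 to -0.14. Groups that do not overlap with all arrays cannot overlap with fewer, so for these 3 genes neither the sign nor the separation could turn. The count of effector genes above the controls without overlap was 2 with all arrays and 5 when miR-128 replicate 2 was left out, where Ago1, Ago2 and Tnrc6c joined, while the share of all named genes on the higher side was 13.1% in that setting. Leaving out miR-Control replicate 1 gave 4, with 12.3% of all named genes, and leaving out miR-128 replicate 3 gave 3, with 10.6%. Leaving out miR-128 replicate 1 or miR-Control replicate 2 gave 2, with 11% and 11.3%. Leaving out miR-Control replicate 3, the array that stood apart, also gave 2, and in that setting 34.7% of named genes did not overlap, 21.2% on the higher side and 13.6% on the lower. Dicer1 was the single processing gene below the controls, with no other joining it in these settings.

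**Figure D5:**
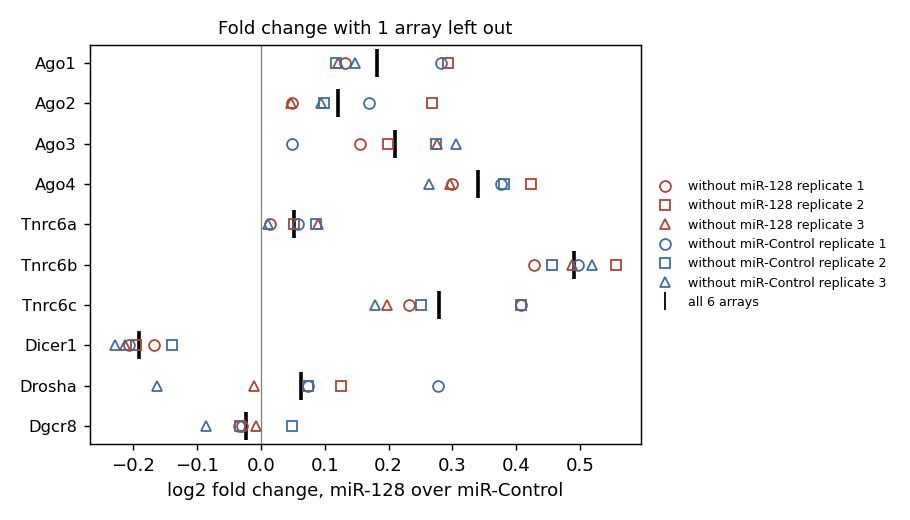
Log2 fold change of miR-128 over miR-Control for each gene with all 6 arrays (black bar) and with 1 array left out (open symbols, red for a miR-128 array and blue for a miR-Control array). All symbols of the 7 effector genes lie right of 0 and those of Dicer1 left of it, while Drosha runs from -0.16 to 0.28 and Dgcr8 from -0.09 to 0.05.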

How the data were processed

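The deposited table holds log2 expression values of 6 exon arrays, which the authors made by RMA; affy is the package that the submitters' processing notes name. RMA corrects background, normalises and summarises each probe group as 1 log2 value, and tends to shrink fold changes. For versions, probe grouping and genome build: not given in the sources used here. Rows were named by unversioned match to the RefSeq table of GRCm38.p6, and 25343 of 32025 rows got a name. Titles gave the groups. limma 3.58.1 in R 4.3.3 (lmFit, eBayes, unpaired, no filter on low values, no detection call) was run on all rows with Benjamini-Hochberg adjustment over all of them, and it was tested on simulated data. The number of arrays limits precision. A gene is represented by its row of highest mean. Named were all 10 genes, the 2 of smallest p in other pathway lists, and the genes most like Tnrc6b; some results are not reported here. The members and lists were chosen with earlier results of these data known. Mir17hg, some marker genes, the microRNA rows and the paralog pairs were picked after their values were seen. The labels state no design beyond the groups, so the replicate numbers were not taken as pairs. Same-numbered arrays of the 2 groups had correlations of -0.0028, 0.17 and 0.05 between their deviations from the group means. Arrays with different numbers had correlations from -0.24 to 0.19. With 3 arrays per group these values cannot settle whether the arrays pair.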

Additional observations from a re-analysis of the deposited data

How the results depend on the processing

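No row passed with the values as deposited, under quantile normalization, median centring, a trended robust prior, ordinary statistics, identical rows counted once or any array left out, whereas 4 rows passed among rows above the median level and 24 under limma's array weights, none of them of these 10 genes. With the replicate block 0 rows passed; the numbers are not shown to pair the arrays, and the block changed no call. Of 167 recomputed values of the 12 rows, 160 kept their sign, 7 turned and 0 passed, with a lowest adjusted p of 0.0855 (Tnrc6b under array weights). Drosha turned to -0.20 under array weights, and with 1 array left out it ran from -0.16 to 0.28 and Dgcr8 from -0.086 to 0.049. The median of the processing genes moved to -0.20 under array weights and ran from -0.16 to 0.049 with 1 array left out. The median of the effector genes ran from 0.15 to 0.29 over its alternatives, and effector minus processing from 0.23 to 0.38. The count of effector genes above all controls, whose alternatives were chosen after seeing the data, was 1 (Tnrc6b) after median centring and 2 to 5 with 1 array left out. Signal over background is unknown, so weak rows cannot be told from absent transcripts.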
